A study of Mus musculus with 49 samples.

Results

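Mucosal defence genes were followed through a culture series in which adult mouse hepatocytes lost their identity, expanded as dedifferentiated cells termed dediHeps, and were then grown as aggregates or as intestine-like organoids. The 9 genes, Duox2, Duoxa2, Pigr, Sftpd, Pglyrp1, Reg3b, Reg3g, Nos2 and Slpi, were chosen from 46078 gene identifiers by symbol. Each symbol matched 1 identifier. Their levels as CPM (UMI counts of a gene per 1000000 counts of its library) in all 16 conditions were known when they were chosen, so their levels, fold changes and calls by the fit across all genes are given as a description, without a p-value. Adjusted p-values are given only for a list of 91 other defence genes, called companion genes below, which holds oxidases, secreted antimicrobials, antibody transport genes, protease inhibitors and their inducers and receptors. That list was also drawn up with earlier results of these data known, so its p-values are not independent support.

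All cells came from C57BL/6J wild-type mice. Hepatocytes were isolated from 10-week-old livers by collagenase digestion. They were sampled fresh (FH, n = 3) or after monolayer culture with EGF for 3 h, 1, 2 or 4 days and 1 or 2 weeks (3 libraries per time). A further set was kept for 1 week with 0.3 µM verteporfin, an inhibitor of Yap signalling, or with its solvent DMSO (2 libraries each). DediHeps (n = 5) were passaged monolayer cultures. Aggregates of dediHeps (n = 3) were formed in wells to which cells do not attach. Spherical organoids of dediHeps (dediHep-SO, n = 3) grew in Matrigel with Wnt3a, CHIR99021, EGF, Noggin and R-spondin1. Budding organoids of dediHeps (dediHep-BO, n = 3) carried a retrovirus for the intestinal transcription factor Cdx2 and were passaged in the same medium before Wnt3a and CHIR99021 were left out. Both organoid groups of dediHeps thus differ in Cdx2, in medium and in form, which cannot be told apart. Chemically induced liver progenitors (CLiPs, n = 3) were hepatocytes cultured with Y-27632, A-83-01 and CHIR99021. Intestinal references were spherical organoids of fetal intestinal progenitor cells from E13.5 embryos (FIPC-SO, n = 3) and budding organoids of adult intestinal stem cells from 10-week-old small intestine (ISC-BO, n = 4). By the study's description, crypts for ISC-BO were kept without Wnt3a and CHIR99021, while fetal progenitors form spherical organoids with both added. These references thus differ in donor age, medium and form, which cannot be told apart. By the culture names in the labels, each aggregate and each dediHep-SO was made from a dediHep culture that was also sequenced. For other libraries the labels do not say whether replicates came from separate animals, so the spread between replicates may be technical in part.

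Epithelia that line the gut and airway meet microbes with secreted and membrane-bound proteins. The polymeric immunoglobulin receptor carries IgA from the tissue side to the lumen, dual oxidases release hydrogen peroxide at the apical membrane, C-type lectins of the Reg3 family and peptidoglycan recognition protein 1 act on bacteria, surfactant protein D binds microbial sugars, and secretory leukocyte protease inhibitor restrains proteases of neutrophils. In the mouse the receptor for IgA is also made by hepatocytes, which pass IgA into bile, and Reg3 genes are known from Paneth cells and enterocytes of the small intestine.

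On GRCm38 with GENCODE M21, Duox2 lies at chr2:122279247-122298449 on the minus strand and Duoxa2 at chr2:122298900-122302885 on the plus strand, head to head, with RefSeq start sites 673 bases apart. Reg3b at chr6:78370657-78373466 (plus) and Reg3g at chr6:78466269-78468872 (minus) have start sites 97989 bases apart. Pigr lies at chr1:130826684-130852249 (plus), Slpi at chr2:164354070-164389095 (minus), Sftpd at chr14:41172214-41185149 (minus), Pglyrp1 at chr7:18871331-18890459 (plus) and Nos2 at chr11:78920787-78960254 (plus). CEL-Seq2 counts the 3′ end of each transcript. Over its last 500 bases Duoxa2 overlaps Duoxa1 on the other strand, and whether counting used strand is not given in the sources used here, so Duoxa2 counts are uncertain. The last 300 transcript bases of Reg3b and Reg3g were 58.8% identical, with a longest shared run of 17 bases.

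Promoter windows from RefSeq (GRCm38.p6) were found for 7 of the 9 genes, not for Sftpd or Nos2. Below are the 150 bases before the start site of the Reg3 pair, whose levels had the most similar profiles among the 9 genes, and of Pigr and Slpi, the members with the highest levels in the hepatocyte time course. Start sites are those of RefSeq. GENCODE also holds transcripts of Reg3b and Slpi that begin further upstream, so both windows lie inside the gene spans given above, and 24 of the 150 Reg3b bases are in GENCODE exons. Capitals mark TATAAA in Reg3b and Reg3g, TTCNNNGAA (a STAT-type palindrome) in Reg3b, and CACGTG (an E-box) in Pigr and Slpi.
Reg3b, chr6:78370735-78370884, plus strand: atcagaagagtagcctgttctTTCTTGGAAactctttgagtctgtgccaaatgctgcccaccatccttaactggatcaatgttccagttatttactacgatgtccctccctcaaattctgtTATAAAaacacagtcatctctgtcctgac
Reg3g, chr6:78468875-78469024, minus strand: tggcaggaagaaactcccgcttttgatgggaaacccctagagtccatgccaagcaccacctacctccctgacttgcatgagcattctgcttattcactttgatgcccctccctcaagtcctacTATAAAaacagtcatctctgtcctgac
Pigr, chr1:130826534-130826683, plus strand: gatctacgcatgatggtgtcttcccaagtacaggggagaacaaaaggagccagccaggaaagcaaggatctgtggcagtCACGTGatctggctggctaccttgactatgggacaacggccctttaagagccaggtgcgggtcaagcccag
Slpi, chr2:164356508-164356657, minus strand: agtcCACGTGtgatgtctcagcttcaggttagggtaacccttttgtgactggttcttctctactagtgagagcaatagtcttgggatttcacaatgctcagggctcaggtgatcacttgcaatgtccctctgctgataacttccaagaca
The Reg3b and Reg3g windows of 250 bases were 68.9% identical, against 46.7% to 52.8% for the 20 other pairs of the 7 windows. TATAAA stood 29 bases before the start of Reg3b and 27 before that of Reg3g, with a second match 161 bases before Reg3g, and 30 before the start of Duoxa2. The STAT-type palindrome of Reg3b stood 129 bases before its start, and no match to it lay in the Reg3g window. The E-box stood 71 bases before the Pigr start and 146 before the Slpi start. Pglyrp1 held GGG, any 2 bases and TTTCC (NF-kB type) at 93 bases, and Duoxa2 held TGANTCA (AP-1 type) at 168. None of these 5 motifs matched within 250 bases of the Duox2 start, where 222 of the 250 bases lie in GENCODE exons, and no 2 matches overlapped. On both strands of 27025 promoter windows of the same length, TATAAA was present in 13.0%, TTCNNNGAA in 7.18%, CACGTG in 6.05%, TGANTCA in 6.87% and the NF-kB type in 1.4%. A match describes letters only.

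The 49 libraries held 861047 to 3872936 UMI counts (median 1976760), and 3 counts, the floor used here, were 0.775 to 3.48 CPM in a library. In each of 54 pairs of replicates the chi-square of their counts exceeded its degrees of freedom, by 6.29 to 74.5 times, so that none looked like the same library entered again. Hepatocyte markers summed to 10730 to 12440 CPM in FH, 104 to 144 CPM in dediHep-SO, 717 to 1240 CPM in dediHep-BO, 199 to 267 CPM in FIPC-SO and 620 to 1308 CPM in ISC-BO, with Alb at 0 in dediHep-SO, dediHep-BO and FIPC-SO. The 8 cholangiocyte markers summed to 13.2 to 84.0 CPM in FH (Krt19, Epcam and Cftr at 0), 1114 to 1881 CPM in dediHeps, 2898 to 3507 CPM in dediHep-SO and 1407 to 1753 CPM in dediHep-BO. Markers of intestinal epithelium summed to 63.1 to 1561 CPM in dediHeps, 1247 to 1384 CPM in dediHep-SO, 2067 to 2300 in dediHep-BO, 2165 to 2693 in FIPC-SO and 2533 to 2907 in ISC-BO. The part of these marker levels in the levels of the members was not tested. In such bulk samples fewer expressing cells and less RNA per cell cannot be told apart. Of the members, Slpi reached a mean of 5 CPM in 10 conditions, Pigr in 8, Duox2, Pglyrp1, Reg3b and Reg3g in 4 each, Sftpd in 3, Duoxa2 in 1 and Nos2 in none.

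**Figure D1:**
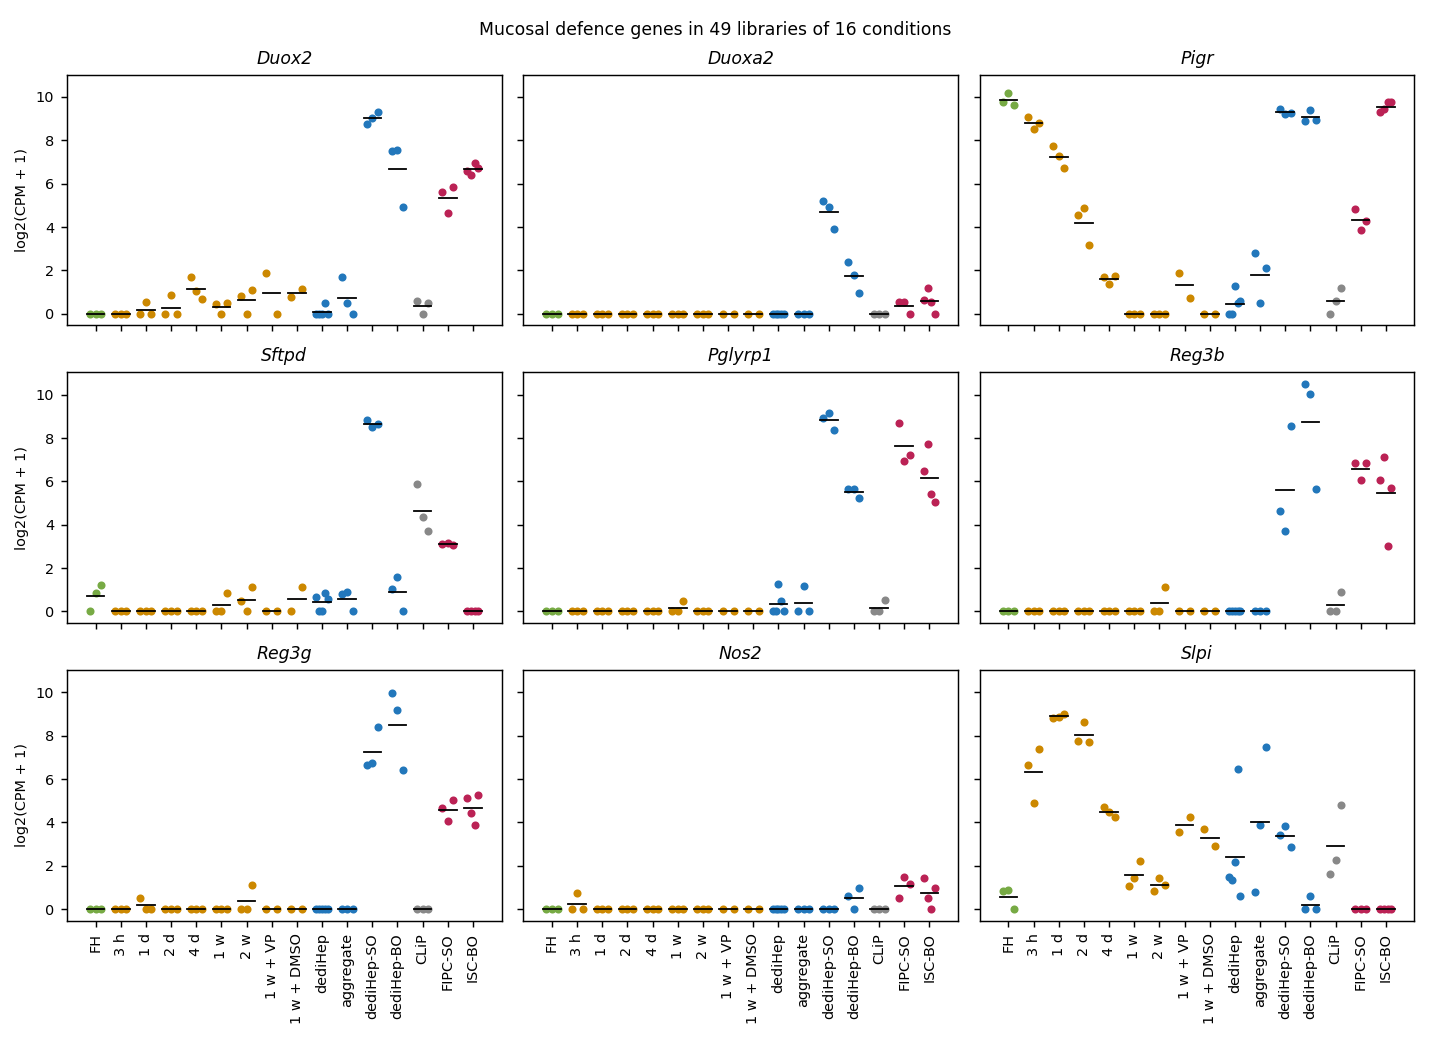
Level of each gene in every library as log2(CPM + 1) on the vertical axis, by condition on the horizontal axis, with points for the 49 libraries and bars for the condition means. Duox2, Pglyrp1, Reg3b and Reg3g stood above 5 CPM in the 4 organoid groups only, Pigr also in fresh hepatocytes and up to 2 days of culture, and Slpi was highest at 1 day. Colours separate fresh hepatocytes, time course and drug libraries, dediHep-derived groups, CLiPs and intestinal organoids.

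Pigr, the polymeric immunoglobulin receptor, was the member with the clearest hepatocyte level. FH held 859, 1178 and 789 CPM (mean 942 ± 207, SD, n = 3). At 3 h of culture the 3 libraries held 539, 370 and 443 CPM, at 1 day 212, 156 and 105, at 2 days 22.5, 28.7 and 7.88, and at 4 days 2.19, 1.63 and 2.35. No library at 1 week or 2 weeks held a count. Each time point up to 2 days lay below the one before it without overlap, and so did 4 days. Relative to FH the log2 fold change (log2 difference in the fit) was -1.0 (SE 0.37) at 3 h, -3.28 (SE 0.40) at 1 day, -6.37 (SE 0.47) at 2 days and -9.68 (SE 0.57) at 4 days. With 3 counts as the floor of a group, Pigr was at least 2176-fold lower at 1 week and at least 1603-fold lower at 2 weeks. In the 5 dediHep libraries Pigr had 6 counts in all, 0 to 1.4 CPM, a log2 fold change of -11.50 (SE 0.62) from FH. Leaving out dediHep replicate 3, which held 4 of the 6 counts, moved it to -12.32.

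Slpi, the inhibitor of neutrophil proteases, was low in FH, highest at 1 day and low again by 1 week. FH held 0.800, 0.826 and 0 CPM, 2 counts in all. The level was 98.0, 28.9 and 167 CPM at 3 h, 446, 467 and 509 CPM at 1 day (mean 474 ± 32.4, SD), 218, 393 and 209 CPM at 2 days, and 25.4, 21.7 and 18.2 CPM at 4 days. All 3 libraries at 1 day lay above every library of the other 15 conditions. At 1 week Slpi had returned to 1.09 to 3.63 CPM and at 2 weeks to 0.783 to 1.70 CPM. Against the 2 counts of FH, the ratio of pooled levels was 193 at 3 h (95% counting interval 53.1 to 1598), 943 at 1 day (261 to 7793), 557 at 2 days (154 to 4601) and 44.1 at 4 days (12 to 368). These intervals cover counting error only. A micro RNA gene, Mir7678, overlaps the end of Slpi on the same strand.

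**Figure D2:**
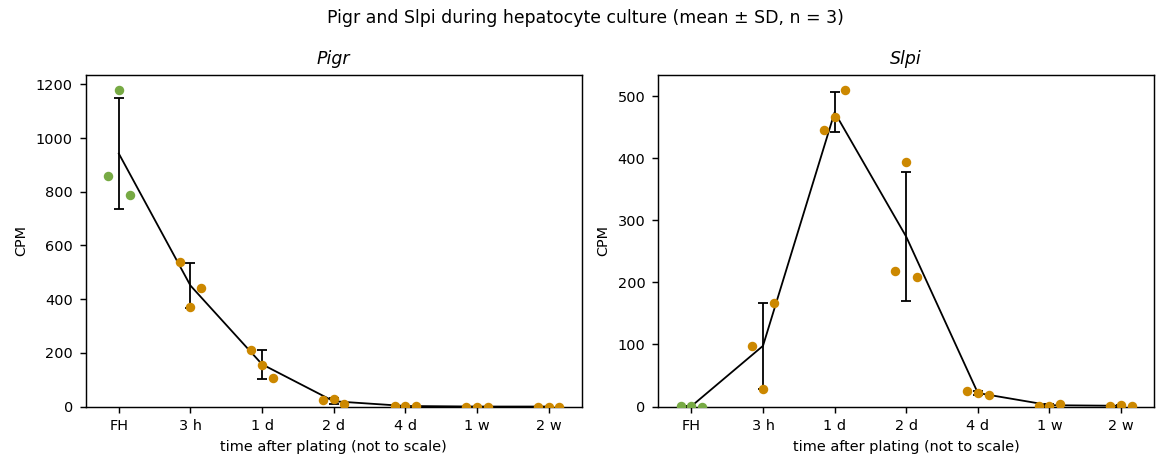
Pigr (left) and Slpi (right) in fresh hepatocytes and at 6 times after plating, as CPM of the library total. Points are libraries, the line joins the means and bars are SDs (n = 3 per time, time axis not to scale). Pigr went from 942 to 0 CPM, and Slpi peaked at 1 day with 474 CPM.

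The other 7 members were at or near 0 through the time course. Duox2 was highest at 4 days, with 8 counts in 3 libraries (0.588 to 2.19 CPM) against none in FH, at least 1.82-fold higher, and Sftpd, Pglyrp1, Reg3b, Reg3g and Nos2 had at most 2 counts in any library from FH to 2 weeks. Duoxa2 had none. Only Pigr and Slpi passed the low-count filter of the time course. Of these 2, the fit called (adjusted p under 0.1 and absolute log2 fold change over 2) 1 at 3 h where 6.91% of all 12443 genes tested were called, 2 at 1 day (17.4% of all genes), 2 at 2 days (21.3%), 2 at 4 days (23.8%), 1 at 1 week (25.9%) and 1 at 2 weeks (29.5%). In dediHeps against FH, Pigr alone was tested and was called, beside 25.7% of 11276 genes. Nothing is read from these counts, since the same values chose the genes.

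Companion genes of the hepatocyte cultures were tested in the same fits. At 3 h 12 of 39 companion genes tested rose and 4 fell, of which 10 that rose were among the 21 tested inducer and receptor genes. The median log2 fold change of the list was 0.66, and -0.07 over all genes. Lcn2, a siderophore-binding antimicrobial protein, rose from 7.12 ± 5.02 to 365 ± 83.4 CPM (SD, n = 3 each), a log2 fold change of 5.78 (SE 0.48, edgeR adjusted p = 7.06e-08). Cd14, the co-receptor for lipopolysaccharide, rose from 2 counts in FH to 382 counts, a pooled ratio of 178 (95% counting interval 48.8 to 1472, edgeR adjusted p = 4.63e-05). The transcription factor gene Cebpb rose (log2 difference 2.84 with SE 0.39, edgeR adjusted p = 6.84e-05). Colec10 and Colec11, collectin genes, fell, with log2 fold changes of -4.02 (SE 0.85, edgeR adjusted p = 0.00765) and -4.38 (SE 0.81, edgeR adjusted p = 0.0014). Stellate cell and fibroblast markers summed to 47.3 to 127 CPM in FH and 13.7 to 17.6 CPM at 3 h (Pdgfrb and Lum at 0), and endothelial markers to 126 to 198 and 28.1 to 63.8 CPM. Their part in the lower Colec10 and Colec11 was not tested. The other two that fell, Cybb and Lyz2, are also genes of macrophages, and macrophage markers summed to 81.4 to 251 CPM in FH and to 0.765 to 6.85 CPM at 3 h, with Adgre1, Cd5l, Vsig4 and Marco at 0. Their part in the lower Cybb and Lyz2 was not tested. Without the second 3 h library neither was called (log2 fold changes -4.47 and -4.42), and Lyz2 was also lost without 3 h replicate 1 (-4.92) or 3 (-6.36) or the second FH library (-4.91).

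From 1 day on more companion genes fell than rose. The counts were 3 higher and 11 lower at 1 day, 3 and 13 at 2 days, 6 and 14 at 4 days, 5 and 14 at 1 week, and 5 and 15 at 2 weeks, of 39 tested each time. Over all genes 818 were higher and 1352 lower at 1 day, 1146 and 1503 at 2 days, 1421 and 1537 at 4 days, 1638 and 1587 at 1 week, and 1759 and 1909 at 2 weeks. Of 6 antibody transport and collectin genes tested, 5 fell at 1 day, 2 days and 4 days and all 6 fell at 1 week and 2 weeks. Mbl1, a mannose-binding lectin of the liver, had 160 ± 43.0 CPM in FH and no count at 1 week or 2 weeks, at least 381-fold and at least 281-fold lower. Mbl2 was lower at 2 weeks (log2 difference -6.08 with SE 0.47, edgeR adjusted p = 4.35e-10). Lcn2 stayed higher than FH at each time, with 1283 ± 273 CPM at 1 day and 236 ± 31.1 CPM at 2 weeks. Slpi and Lcn2 thus both had their highest mean of the time course at 1 day.

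DediHeps held almost no transcript of the members. Of the 5 libraries, Duox2 had 1 count, Sftpd 4, Pglyrp1 5 and Pigr 6 in all, and Duoxa2, Reg3b, Reg3g and Nos2 had none. Slpi was the exception, with 1.84, 1.58, 3.51, 86.1 and 0.510 CPM. The fourth dediHep library stood apart from the other 4. In aggregates Slpi was 0.734, 13.6 and 176 CPM. The aggregate with 176 CPM was made from the dediHep culture with 86.1 CPM, by the culture name in the labels, while the aggregates with 0.734 and 13.6 CPM came from the cultures with 1.84 and 1.58 CPM. The aggregate and dediHep groups overlapped, with a log2 fold change of 1.95 (SE 1.48), which became -1.17 without the third aggregate. Slpi alone was tested in this comparison and was not called, where 9.51% of 11265 genes were. Pigr in aggregates was 5.87, 0.424 and 3.31 CPM, 16 counts against 6 in dediHeps, with overlapping ranges.

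Among companion genes 6 of 34 tested rose and 12 fell in dediHeps against FH. All 6 tested antibody transport and collectin genes fell. Wfdc2, a whey acidic protein like Slpi, rose from 7.63 ± 2.73 to 392 ± 263 CPM (log2 difference 4.79 with SE 0.72, edgeR adjusted p = 0.000355), and Nfkbiz, an NF-kB cofactor, with a log2 fold change of 3.42 (SE of 0.51, edgeR adjusted p = 0.000316). Mbl2 fell by 9.69 on the log2 scale (SE 0.93, edgeR adjusted p = 1.52e-05). In aggregates against dediHeps 5 of 30 tested rose and 1 fell. Il6ra, an IL-6 receptor subunit, and Mbl2 were among those that rose, by log2 fold changes of 2.87 (SE 0.39, edgeR adjusted p = 0.00144) and 4.89 (SE 0.98, edgeR adjusted p = 0.0104). With the culture as a block, 6 genes were again called. Mbl2, low in dediHeps, passed the low-count filter only through the other group in both comparisons and so had to differ.

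In dediHep-SO 7 members had levels between 12.1 and 696 CPM in every library where dediHeps had at most 1.4 CPM in any. Sftpd, which encodes surfactant protein D, was 454, 365 and 395 CPM in dediHep-SO and 0 to 0.832 CPM in dediHeps (log2 fold change 9.88, SE 0.54, and 10.88 with the culture as a block). Pigr was 696, 601 and 617 CPM (10.09, SE 0.53), by CPM below every FH library and above every 3 h library. With TMM scaling the order of the means against 3 h was reversed, at 702 CPM at 3 h and 589 CPM in dediHep-SO. Pglyrp1, which encodes peptidoglycan recognition protein 1, was 480, 570 and 331 CPM (9.88, SE 0.63). Without dediHep replicate 3, which held most of the few dediHep counts of Pigr and Pglyrp1, these log2 fold changes became 10.99 for Pigr and 11.29 for Pglyrp1.

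Duox2, the gene of dual oxidase 2, was 430, 513 and 632 CPM in dediHep-SO, 3475 counts against 1 in dediHeps, a ratio of 5483 (95% counting interval 983 to 216630). Its maturation factor gene Duoxa2 was 36.2, 29.8 and 14.2 CPM and at least 101-fold higher than in dediHeps. Reg3b was 23.5, 12.1 and 370 CPM and at least 418-fold higher, and Reg3g 99.3, 105 and 332 CPM and at least 593-fold higher. The third dediHep-SO library was the highest of the 3 for Duox2, Reg3b and Reg3g and the lowest for Duoxa2 and Pglyrp1. Slpi, at 9.55, 13.2 and 6.32 CPM, overlapped the dediHep range (log2 fold change -0.95, SE 1.34). Without dediHep replicate 4 the log2 fold change was 2.34 and it was called. With the culture as a block it was 2.09 and called. Nos2, the inducible nitric oxide synthase, had no count in dediHep-SO, which allows up to 0.441 CPM with 3 counts over the group.

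Of the 9 members 8 passed the low-count filter in this comparison and 7 were called, all higher, where 8.76% of 11470 genes were called. All 7 called members, at or near 0 in dediHeps, passed that filter only through dediHep-SO and so had to differ.

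Among companion genes 8 of 37 tested rose and 3 fell in dediHep-SO. Gpx2, a glutathione peroxidase of gut epithelium that removes hydrogen peroxide, had 551 ± 68.3 CPM and no count in dediHeps, at least 1972-fold higher (edgeR adjusted p = 1.96e-05). Gpx2 also passed the low-count filter only through dediHep-SO and so had to differ. Noxo1, the organizer of the NADPH oxidase Nox1, rose from 0.506 ± 0.385 to 42.2 ± 6.95 CPM (log2 difference 6.33 with SE 0.55, edgeR adjusted p = 4.98e-05). Nox1 itself was at 3.16 ± 1.44 CPM in dediHep-SO. Spink4, a protease inhibitor of goblet cells, rose from 2 to 488 counts, a pooled ratio of 385 (95% counting interval 106 to 3188, edgeR adjusted p = 3.6e-05). Spint1, an inhibitor of membrane serine proteases, rose (log2 difference 4.56 with SE 0.45, edgeR adjusted p = 0.000134). Noxo1, Spink4 and Spint1, all low in dediHeps, likewise passed that filter only through dediHep-SO and so had to differ. Cybb, the oxidase subunit of phagocytes, fell from 232 ± 150 to 13.8 ± 9.20 CPM (log2 difference -4.03 with SE 0.80, edgeR adjusted p = 0.00823). Macrophage markers summed to 1.02 to 11.9 CPM in those dediHeps, with Adgre1, Cd5l, Vsig4, C1qa, C1qb, C1qc and Marco at 0. Duox1, the other dual oxidase gene, had no count in any organoid library, and Duoxa1, which overlaps Duoxa2, was at 3.46 ± 2.09 CPM in dediHep-SO and at 0 in the other organoid groups.

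Marker lists of blood cells were checked because Pglyrp1 is also a granule protein of neutrophils. Of 8 neutrophil markers 3 were detected in dediHep-SO, with a sum of 35.8 to 57.0 CPM, of which Ly6g made up 42.4 CPM on average. S100a8, Elane, Camp, Ngp and Mmp8 were at 0. Of 10 macrophage markers only Cd68 and Csf1r were detected, with a sum of 11.6 to 22.8 CPM. Of 7 Paneth cell markers, Defa17, Defa24 and Defa30 were at 0 and Lyz1, Itln1 and Ang4 at 0.176 to 15.1 CPM on average, so that Mmp7, at 1679 CPM, made up nearly all of the sum of 1389 to 1976 CPM.

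**Figure D3:**
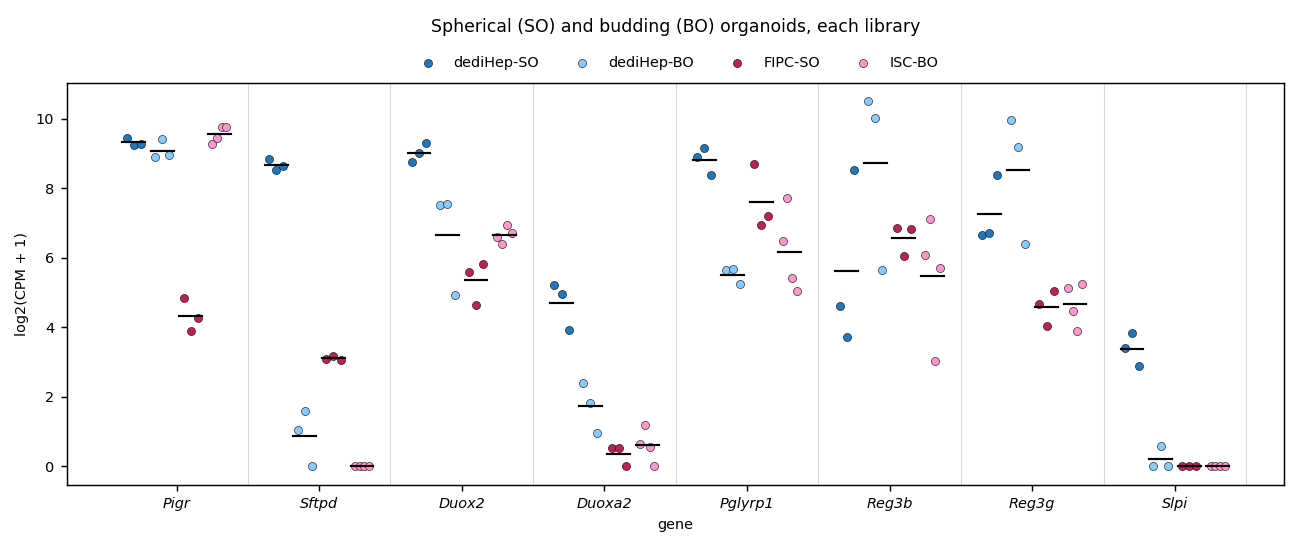
The 8 detected genes in the 4 organoid groups, as log2(CPM + 1) for each library, with bars for group means (n = 3, 3, 3 and 4). Dark points are spherical and light points budding organoids. Sftpd was 365 to 454 CPM in dediHep-SO and 0 to 2.01 CPM in dediHep-BO, while Pigr overlapped between them.

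In dediHep-BO, the budding organoids with Cdx2, Pigr was 473, 677 and 492 CPM and overlapped dediHep-SO (log2 fold change -0.27, SE 0.22). Sftpd was 1.08, 2.01 and 0 CPM, a log2 fold change of -8.60 (SE 0.53) from dediHep-SO, which was -9.47 without the second and -7.97 without the third dediHep-BO library. Pglyrp1 was 49, 49.7 and 36.8 CPM, lower in every library (-3.41, SE 0.31). Duoxa2 was 4.31, 2.51 and 0.957 CPM, also lower in every library (-3.42, SE 0.57). Slpi had 1 count against 66, a ratio of 0.0174 (95% counting interval 0.000433 to 0.10). Nos2 had 3 counts in dediHep-BO.

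Duox2 was 180, 185 and 29.7 CPM in dediHep-BO, all below dediHep-SO, with a log2 fold change of -2.03 (SE 0.54). That value was just past the threshold of the call and became -1.52 without the third dediHep-BO library and -1.88 without the third dediHep-SO library, neither of them called. Reg3b was 1454, 1030 and 48.8 CPM and Reg3g 993, 582 and 83.3 CPM in dediHep-BO. Both overlapped dediHep-SO, with log2 fold changes of 2.68 (SE 1.26) for Reg3b and 1.63 (SE 0.74) for Reg3g that were not called. Without the third dediHep-SO library these became 5.50 for Reg3b and 2.41 for Reg3g, and without the third dediHep-BO library 3.26 and 2.17, all 4 of them called. Over 11 alternatives Reg3b stayed not called in 7 and Reg3g in 9.

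The third dediHep-BO library was the lowest of its group for Duox2, Duoxa2, Pglyrp1, Sftpd, Reg3b and Reg3g. The same library had the lowest sum of Paneth cell markers, 3100 CPM against 5365 and 5425, and of stellate cell and fibroblast markers, 4.31 CPM against 159 and 114, while its sum of enterocyte markers, 1772 CPM, lay between 2542 and 1525. Their part in the levels of the members was not tested. Of 8 members tested between dediHep-BO and dediHep-SO 5 were called, all lower in dediHep-BO, where 11.3% of 11301 genes were called. Duoxa2, Sftpd and Slpi, low in dediHep-BO, passed the low-count filter only through dediHep-SO and so had to differ.

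The companion list went in both directions between these groups, with 13 of 44 tested higher and 7 lower in dediHep-BO. Marker sums also differed from dediHep-SO to dediHep-BO, from 0.341 to 23.2 CPM to 1525 to 2542 CPM for enterocytes, from 157 to 225 CPM to 1284 to 1603 CPM for goblet cells, from 0 to 1.58 CPM to 126 to 546 CPM for enteroendocrine cells, and from 0 to 0.341 CPM to 4.31 to 159 CPM for stellate cells and fibroblasts. Their part in the companion genes was not tested. Of 13 secreted antimicrobial genes tested 10 rose and 3 fell. Ang4, an angiogenin of Paneth cells, rose from 0.176 ± 0.304 to 437 ± 113 CPM, with 1 count in dediHep-SO (edgeR adjusted p = 1.98e-05). Lyz1, Paneth cell lysozyme, rose from 1.23 ± 2.13 to 1784 ± 287 CPM (log2 difference 10.60 with SE 0.75, edgeR adjusted p = 2.3e-05) and so did Itln1, an intelectin, from 15.1 ± 2.60 to 1306 ± 543 CPM (log2 difference 6.37 with SE 0.42, edgeR adjusted p = 2.13e-05). Reg3a, a further gene of the Reg3 family, had no count in dediHep-SO and 258 ± 166 CPM in dediHep-BO. The genes that fell were led by Wfdc2, from 629 ± 297 to 0.160 ± 0.276 CPM with 1 count left, Lcn2, from 196 ± 54.8 to 0.335 ± 0.579 CPM with 2 counts left, and Ltf, the iron-binding lactoferrin, with 49.4 ± 11.6 CPM in dediHep-SO and 0 counts in dediHep-BO, at least 101-fold lower (edgeR adjusted p = 2.13e-05, 2.59e-05 and 9.58e-05). Reg3a was named after its values were seen. Ang4, Lyz1, Wfdc2, Lcn2 and Ltf, at or near 0 in 1 group, passed the filter only through the other and so had to differ.

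Spherical organoids of the 2 origins were compared next. Pigr was 27.9, 13.8 and 18.2 CPM in FIPC-SO, all below dediHep-SO, a log2 fold change of 5.13 (SE 0.36) for dediHep-SO over FIPC-SO. Sftpd was 7.53, 7.99 and 7.27 CPM in FIPC-SO (5.87, SE 0.31). Duox2 was 47.4, 24.0 and 55.7 CPM (3.76, SE 0.37). Reg3g was 24.4, 15.5 and 31.9 CPM (3.00, SE 0.52). Duoxa2 had 2 counts in FIPC-SO against 192 in dediHep-SO, a ratio of 98.6 (95% counting interval 26.9 to 820), and Slpi none against 66, at least 22.6-fold higher in dediHep-SO. In each of these genes every dediHep-SO library lay above every FIPC-SO library.

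Pglyrp1 and Reg3b overlapped between these groups. Pglyrp1 was 412, 121 and 147 CPM in FIPC-SO and overlapped dediHep-SO (1.15, SE 0.49), with 1.98 without the first FIPC-SO library. Reg3b was 115, 64.8 and 113 CPM and lay between the dediHep-SO libraries (0.53, SE 0.97). Without the third dediHep-SO library the value was -2.24 and was called, and with the replicate number as a block it was -0.88. Nos2 had 8 counts in FIPC-SO, 0.443 to 1.78 CPM, and none in dediHep-SO, at least 2.60-fold lower. Of 8 members tested 6 were called, all higher in dediHep-SO, where 8.91% of 11608 genes were called. Duoxa2 and Slpi, at or near 0 in FIPC-SO, passed the low-count filter only through dediHep-SO and so had to differ.

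Of 42 companion genes tested 8 were higher and 9 lower in dediHep-SO than in FIPC-SO. Lcn2 was at 196 ± 54.8 against 0.295 ± 0.511 CPM and Ltf at 49.4 ± 11.6 against 0.283 ± 0.246 CPM, with 2 counts each in FIPC-SO (edgeR adjusted p = 7.61e-05 and 9.61e-05). Lbp, the lipopolysaccharide-binding protein gene, was higher (log2 difference 4.64 with SE 0.48, edgeR adjusted p = 0.00027). Itln1 was lower by 5.25 on the log2 scale and in all 3 libraries (SE 0.40, edgeR adjusted p = 7.61e-05). Lyz1 was at 1.23 ± 2.13 CPM in dediHep-SO and 403 ± 23.2 CPM in FIPC-SO (log2 fold change -8.36, SE 0.81, edgeR adjusted p = 0.000207). Lcn2, Ltf, Lbp and Lyz1, near 0 in 1 group, passed the low-count filter only through the other and so had to differ.

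Budding organoids of the 2 origins had overlapping levels of Pigr, Duox2 and Pglyrp1. Pigr was 622, 690, 860 and 863 CPM in ISC-BO (log2 fold change -0.52, SE 0.19, for dediHep-BO over ISC-BO). Duox2 was 96.2, 82.6, 122 and 104 CPM (0.34, SE 0.48). Pglyrp1 was 87.6, 208, 41.5 and 32.1 CPM (-1.11, SE 0.58). Reg3g was 34.1, 21.0, 13.8 and 36.9 CPM, below every dediHep-BO library (4.35, SE 0.67). Reg3b was 66.0, 138, 7.15 and 51.3 CPM and overlapped dediHep-BO through its replicate 3 (3.62, SE 0.96). The call of Reg3b was lost without the first dediHep-BO library (2.94), without the second (3.48) and without the first ISC-BO library (3.61). Sftpd and Slpi had no count in ISC-BO. Of 5 members tested 2 were called, both higher in dediHep-BO, where 3.05% of 11303 genes were called.

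Of 39 companion genes tested in that comparison 2 were higher in dediHep-BO, Ang4 (437 ± 113 against 83.4 ± 27.9 CPM, edgeR adjusted p = 0.00104) and Cd14 (31.9 ± 6.30 against 5.31 ± 3.55 CPM, edgeR adjusted p = 0.0117), and 2 were lower, Arg2, an arginase (9.28 ± 3.79 against 336 ± 115 CPM, edgeR adjusted p = 6.08e-05), and Cyba, an oxidase subunit (0.359 ± 0.622 against 11.1 ± 4.92 CPM, edgeR adjusted p = 0.0078). Cyba, near 0 in dediHep-BO, passed the low-count filter only through ISC-BO and so had to differ. Without the third dediHep-BO library 8 were called.

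Between the intestinal organoids themselves, ISC-BO had more Pigr than FIPC-SO in every library (log2 fold change 5.38, SE 0.32) and more Duox2 in every library (1.39, SE 0.32, below the threshold of the call). Sftpd went from 53 counts in FIPC-SO to none in ISC-BO, at least 20.9-fold lower. Pglyrp1 (-1.13, SE 0.64), Reg3b (-0.39, SE 0.67) and Reg3g (0.29, SE 0.40) overlapped. Of 6 members tested 2 were called, Pigr higher and Sftpd lower in ISC-BO, where 6.62% of 11644 genes were called. Among companion genes 9 of 42 tested were higher and 3 lower in ISC-BO. Reg3a was at 554 ± 256 against 0.564 ± 0.490 CPM and Reg1, a relative of the Reg3 genes, at 446 ± 141 against 1.26 ± 0.653 CPM (edgeR adjusted p = 1.72e-05 and 9.33e-06), while Wfdc2 was at 0.238 ± 0.477 against 78.3 ± 32.6 CPM, with 2 counts in ISC-BO (edgeR adjusted p = 4.65e-05). Sftpd, Reg3a, Reg1 and Wfdc2, at or near 0 in 1 group, passed the low-count filter only through the other and so had to differ. The comparisons of organoid groups share libraries and are therefore not independent of each other.

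**Figure D4:**
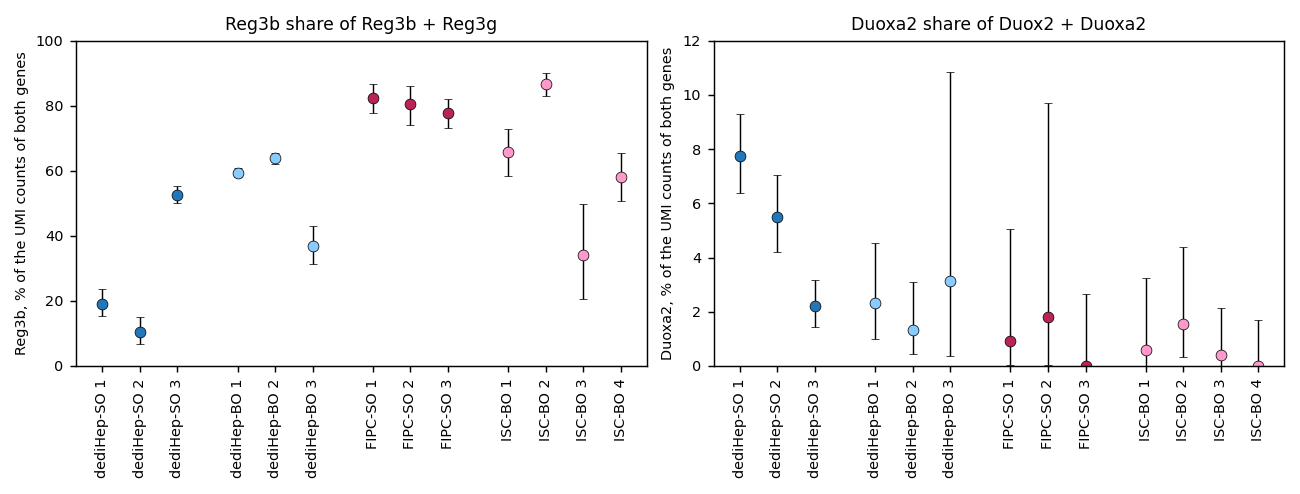
Share of Reg3b in the summed UMI counts of Reg3b and Reg3g (left) and of Duoxa2 in those of Duox2 and Duoxa2 (right), in percent, for each organoid library, with exact 95% binomial intervals. Reg3b shares were 77.9% to 82.5% in FIPC-SO and 10.4% to 52.7% in dediHep-SO, and Duoxa2 shares were 2.2% to 7.76% in dediHep-SO.

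The balance within each gene pair differed between libraries. Shares are set side by side between libraries and not between genes, whose capture may differ. Reg3b made up 19.2% (exact Clopper-Pearson 95% interval 15.2 to 23.6), 10.4% (6.77 to 15.1) and 52.7% (49.98 to 55.4) of the Reg3b and Reg3g counts in dediHep-SO. In FIPC-SO its share was 82.5% (77.9 to 86.6), 80.7% (74.1 to 86.1) and 77.9% (73.3 to 82.1), above every dediHep-SO library. In dediHep-BO it was 59.4%, 63.9% and 37.0%, and in ISC-BO 65.9%, 86.8%, 34.1% and 58.2%, which overlapped. The dediHep-SO library with the highest Reg3b share was also the one with the highest summed count of the pair, and the dediHep-BO library with the lowest share the one with the lowest. In ISC-BO both orders held. In FIPC-SO the library with the lowest share had the highest summed count. In dediHep-BO the highest share was not in the library with the highest summed count. Duoxa2 made up 7.76% (6.40 to 9.31), 5.49% (4.21 to 7.03) and 2.2% (1.46 to 3.19) of the Duox2 and Duoxa2 counts in dediHep-SO, 1.34% to 3.13% in dediHep-BO, 0% to 1.82% in FIPC-SO and 0% to 1.53% in ISC-BO. In the last 2 groups it rested on 2 and 5 counts.

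Among the members, only Sftpd could be tested between CLiPs, the other hepatocyte-derived progenitors, and dediHeps. Sftpd was 58.4, 19.4 and 11.9 CPM in CLiPs, above every dediHep library (log2 fold change 6.17, SE 0.83), with 5.19 without the first CLiP library and 7.11 with the replicate number as a block. All CLiP libraries lay below dediHep-SO and above FIPC-SO. Slpi was 2.07, 3.87 and 26.9 CPM and overlapped dediHeps, and no other member exceeded 1.28 CPM. Sftpd alone was tested and was called, where 3.04% of 11567 genes were. Sftpd, near 0 in dediHeps, passed the low-count filter only through CLiPs and so had to differ. Of 32 companion genes tested 4 rose and 1 fell. Cyba rose from no count in dediHeps to 38.4 ± 26.7 CPM, at least 141-fold higher (edgeR adjusted p = 0.015). Cyba passed the low-count filter only through CLiPs and so had to differ. Macrophage markers summed to 1.02 to 11.9 CPM in dediHeps and 81.9 to 138 CPM in CLiPs, with Adgre1, Clec4f, Cd5l, Vsig4, C1qa, C1qc and Marco at 0 in CLiPs, and their part in the higher Cyba was not tested. Cyba was the only companion gene called without the first CLiP library, and 3 were called without dediHep replicate 5.

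Verteporfin for 1 week was compared with DMSO in 2 libraries each. Slpi was 10.8 and 17.9 CPM with verteporfin and 11.8 and 6.55 CPM with DMSO, with overlapping ranges (log2 fold change 0.68, SE 0.47). Pigr had 4 and 1 counts with verteporfin and none with DMSO, at least 1.74-fold higher with 3 counts as the floor of a group. Duox2 had 4 counts against 3. Slpi alone was tested and was not called, where 0.269% of 10400 genes were. Of 23 companion genes tested edgeR called 0, with 3 at an unadjusted p under 0.05, and DESeq2 also called 0.

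**Figure D5:**
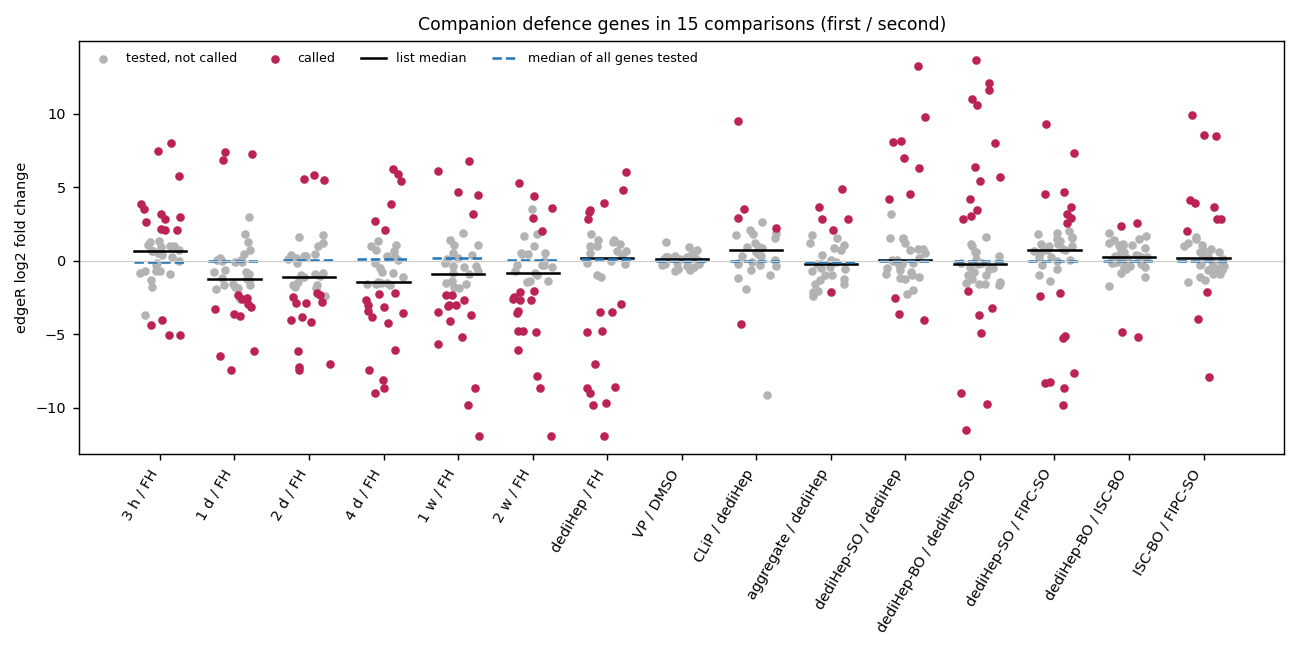
Log2 fold changes of the companion genes tested in each of 15 comparisons, first group over second, with called genes in colour, a black line for the median of the list and a dashed line for the median of all genes tested. Called genes numbered 20 in dediHep-BO over dediHep-SO (13 higher, 7 lower), 4 in dediHep-BO over ISC-BO and 0 with verteporfin.

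Genes with the most similar profile were sought for each of the 8 members with a mean of at least 5 CPM in a condition, as Pearson's r over the 16 condition means of log2(CPM + 1) among 14299 such genes. These values describe 16 points, several of which derive from the same cultures, and carry no p. Among the members Reg3b and Reg3g had r = 0.987 and Duox2 and Pglyrp1 r = 0.963, while Slpi had a negative r with all 7 others (-0.552 to -0.0847). The genes closest to Duox2 were Kcnn4 (r = 0.992), a calcium-activated potassium channel, Serpinb5 (0.979) and Fam3b (0.978). Kcnn4 was 101 CPM in dediHep-SO, 29.8 in dediHep-BO, 15.7 in FIPC-SO and 28.4 in ISC-BO, in the order of group means that Duox2 had. Pglyrp1 was closest to Noxo1 (0.994), S100a14 (0.993) and Gm16136 (0.989). Reg3b was closest to the short-chain fatty acid receptor gene Ffar2 (0.998), then 2010016I18Rik (0.984) and Atp10b (0.983), and Reg3g to Ffar2 (0.983), Serpinb5 (0.974) and Ptprr (0.973).

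Sftpd was closest to Tff2 (r = 0.989), a trefoil factor of gastric and pancreatobiliary epithelium, then Pdlim4 (0.940) and Mal (0.917). Tff2 was 38.8 CPM in dediHep-SO and 4.87 CPM in CLiPs and at most 1.59 CPM in the other organoid groups. Duoxa2 was closest to the water channel gene Aqp5 (0.964), Blk (0.958) and the companion gene Wfdc18 (0.957). Pigr, with levels in hepatocytes and organoids alike, was closest to Cela1 (0.921), Mctp2 (0.904) and the cell adhesion gene Ceacam1 (0.902), which was 605 CPM in FH, 5.19 CPM in dediHeps, 201 CPM in dediHep-SO and 479 CPM in dediHep-BO. Slpi had no close neighbour in these terms, with Emc4 (0.855), Abcc3 (0.853) and Cyp21a1 (0.825) the nearest.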

How the data were processed

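RNA of 49 libraries was sequenced by CEL-Seq2, in which unique molecular identifiers (UMIs) tag transcripts at their 3′ end. The deposited counts were UMI counts per gene that the authors made from reads aligned to GRCm38. The submitters' processing notes name bcl2fastq 2.20, Bowtie2 2.3.1 and HTSeq 0.6.0, and the counting strand is not given in the sources used here. No count exceeded 4096 in any library, as many as UMIs of 6 bases allow, and the highest count of the 9 genes was 2700. RNA was purified with ISOGEN II or RNeasy, and which was used for a library is not given in the sources used here. Samples were grouped by their labels.

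Levels (CPM) were counts per 1000000 counts of the library, with no correction for length, and are therefore not compared between genes. Library totals of 861047 to 3872936 set the value of 1 count at 0.258 to 1.16 CPM. Counts were fitted with edgeR 4.0.16 in R 4.3.3 (TMM scaling, quasi-likelihood F-test, Benjamini-Hochberg adjustment) over all genes that passed filterByExpr with a minimum count of 10 and a minimum total of 15. The 6 times and FH shared 1 fit, and other comparisons were fitted pairwise. A gene near 0 in 1 group could pass the low-count filter only through groups where it was high, and so had to differ. Calls used the thresholds of the study, an adjusted p under 0.1 together with an absolute log2 fold change above 2. SEs were the absolute log2 fold change divided by the square root of F. Against a group with no count, folds are lower bounds with 3 counts over the group as the floor. With 1 to 3 counts the pooled ratio is given with its exact counting interval, which covers counting error only.

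The 9 genes and the companion list were chosen with earlier results of these data known, so no p-value is given for the 9 genes. All 9 are named. Companion genes were named from those called, at most the 4 of smallest p in each direction of a comparison, and those outside this rule (Duox1, Duoxa1, Nox1, Reg3a against dediHep-SO, and Lyz1, Cybb, Lyz2 or Lcn2 where another time or group is given) are named for their place in a pathway or beside a named gene, after their values were seen. Profile neighbours were the 3 non-members of highest r for each member with at least 5 CPM.

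Alternatives were DESeq2 1.42.0 and its size factors (RLE), no low-count filter, all 49 libraries in 1 fit, a replicate block, leaving out each library, TMM-scaled levels and, added after the data were seen, a correction of levels for UMI collisions. Culture names in the labels pair each aggregate and each dediHep-SO library with a dediHep library. Deviations of these pairs from their group means correlated with r of 0.192, 0.256 and 0.36 for aggregates and of -0.481, 0.0371 and 0.0129 for dediHep-SO. The fits were tested on simulated counts with known changes.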

Additional observations from a re-analysis of the deposited data

Results flagged for a closer look

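The dediHep library of replicate 4 stood apart from the other 4 in Slpi, at 86.1 CPM (207 counts) against 0.510 to 3.51 CPM. The gap to the nearest library took 0.965 of the range of the group. Duox2 in the same library, at 0.416 CPM, met the same criterion on 1 count, with the other 4 libraries at 0. Of 12 sets of values tested for such a library 2 met the criterion, and chance gives about 1 in 20. That rate does not hold for Duox2, since 1 count with the other libraries at 0 always meets the criterion.

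Duox2 had opposite directions between budding and spherical organoids of the 2 origins. The log2 ratio of mean CPM, budding over spherical, was -2.0 for organoids of dediHeps and 1.26 for organoids of intestinal cells, and in both origins the libraries of the 2 forms did not overlap. The difference between the origins was not tested. Budding organoids of dediHeps carried Cdx2 and those of intestinal stem cells did not. In both origins the medium differed between the forms, by the study's description. The intestinal forms also differed in the age of the donor tissue. None of these can be told apart from form.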

How the results depend on the processing

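No result reversed among those that were called. Of 173 counts of called companion genes recomputed under alternatives, 157 stayed within 1.5 times and 16 moved. Without the low-count filter, which tests more genes, the counts were 30 in dediHep over FH, 15 in aggregates over dediHeps, 20 in dediHep-SO over dediHeps, 31 in dediHep-BO over dediHep-SO, 26 in dediHep-SO over FIPC-SO, 10 in dediHep-BO over ISC-BO and 8 in CLiPs over dediHeps. With DESeq2 they were 13 in aggregates over dediHeps and 8 in CLiPs over dediHeps. With all 49 libraries in 1 fit they were 15 in aggregates over dediHeps, 20 in dediHep-SO over dediHeps, 9 in dediHep-BO over ISC-BO and 13 in CLiPs over dediHeps. Leaving out 1 library gave 3 to 8 in dediHep-BO over ISC-BO (8 without the third dediHep-BO library) and 1 to 6 in CLiPs over dediHeps (1 without the first CLiP library, 3 without dediHep replicate 5). The cause was not tested for these except where the filter changed the genes tested. With a replicate block the counts were 19 in dediHep over FH, 17, 15, 17, 20, 20 and 20 from 3 h to 2 weeks, 6 in aggregates, 11 in dediHep-SO and 5 in CLiPs over dediHeps, 20 in dediHep-BO over dediHep-SO, 18 in dediHep-SO over FIPC-SO, 6 in dediHep-BO over ISC-BO, 11 in ISC-BO over FIPC-SO and 0 with verteporfin. The block was the culture name for aggregates and dediHep-SO over dediHeps and otherwise the replicate number. Column names of the hepatocyte cultures carry running numbers, which the block at 3 h did not follow. What these numbers stand for is not given. For the members, 387 of 406 log2 fold changes moved by less than the pooled SD of log2(CPM + 1) between replicates. That limit is not the SE given with the fold changes. Of 729 mean levels 723 were counted as unmoved. TMM-scaled levels were 0.828 to 1.56 times the CPM, highest for Slpi at 3 h (153 CPM), with 1409 CPM for Pigr in FH. The UMI collision correction, chosen after seeing the data, moved levels by 0.684 to 1.31 times, to 1104 CPM for Reg3b in dediHep-BO and 329 CPM for Pigr at 3 h. Levels below about 3.48 CPM rest on 3 counts or fewer in the shallowest library.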
